A study of Mus musculus with 24 samples.

Results

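The mouse genes named Zfp900 to Zfp999 are zinc finger genes, many of them rodent KRAB zinc finger genes. They were selected by symbol alone: every probe set whose only gene symbol in the platform annotation was Zfp followed by a number in that range, with the probe set of the highest mean over all arrays standing for a gene. This gave 34 genes of the 19938 measured, and no filter on low values was applied, so all 34 were tested. The selection was made with an earlier result in view, the higher level of Zfp980 in Eed knockout cells on day 7. That difference, and every comparison that contains it, is therefore given for Zfp980 as a description with no test.

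RNA came from 24 samples, each hybridised to an Affymetrix Mouse Gene 1.0 ST array with probes spread along the transcript. The study compared mouse embryonic stem cells (ESCs) that lack Eed, without which the Polycomb complex PRC2 cannot methylate histone H3, with wild-type (WT) ESCs, and followed both through differentiation. The Eed knockout (KO) groups were Eed KO E14 and Eed KO J1, and the wild-type groups were J1 WT and V6.5 WT, each on day 0 as undifferentiated ESCs and on days 3 and 7 as embryoid bodies, with 2 arrays per line and day. E14, J1 and V6.5 are ESC lines of different strain backgrounds, and each combination of genotype and line (called a clone here) is present as 1 culture line, so 4 clones stand behind all comparisons and J1 is the only line present in both genotypes. All ESCs had been grown with LIF-conditioned medium on inactivated embryonic fibroblasts, which were depleted before differentiation in hanging drops without LIF. The labels do not state whether the 2 arrays of a clone and day had separate cultures as their source, and the array spread behind each p-value may thus be technical.

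KRAB zinc finger proteins bind DNA through arrays of zinc fingers. Their KRAB domain recruits the corepressor TRIM28 and, through it, the histone methyltransferase SETDB1 and DNA methylation, and in ESCs they are known for silencing retroelements. The genes lie in clusters that have multiplied by duplication, so neighbours are often near-identical copies. Little is known of most of the members: Zfp982 has been described as a regulator of pluripotency genes in ESCs, and Zfp979 carries the RefSeq synonym Ssm1b, a strain-specific modifier of DNA methylation.

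In the RefSeq gene table of assembly GRCm38.p6, 16 of the 34 genes stood in runs, in which no more than 10 coding genes separated a member from the next. A run on chromosome 4 held Zfp980, Zfp991, Zfp982, Zfp985, Zfp979 and Zfp933. A run of 8 on chromosome 17 held Zfp948, Zfp983, Zfp942, Zfp943, Zfp947, Zfp944, Zfp946 and Zfp945, and Zfp971 and Zfp931 were adjacent on chromosome 2. The other 18 genes stood alone. The chromosome 4 run carried most of the differences described below, and the sequences upstream of its genes are shown for that reason.

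RefSeq promoter windows of GRCm38.p6 were matched by gene identifier for 32 of the 34 genes. Zfp991 of the chromosome 4 run and Zfp930 had no window, so their upstream sequences were not examined. The 250 bases before the annotated start are printed 5′ to 3′ on the strand of the gene for 5 members of the chromosome 4 run, for Zfp982 before the second of its annotated starts. They lie at chr4:145670447-145670696 on the plus strand for Zfp980, at chr4:147642509-147642758 on the minus strand for Zfp979, at chr4:147492167-147492416 on the plus strand for Zfp982, at chr4:147553027-147553276 on the plus strand for Zfp985 and at chr4:147848419-147848668 on the minus strand for Zfp933. Capitals mark the longest run of bases common to the first 4 genes.
Zfp980: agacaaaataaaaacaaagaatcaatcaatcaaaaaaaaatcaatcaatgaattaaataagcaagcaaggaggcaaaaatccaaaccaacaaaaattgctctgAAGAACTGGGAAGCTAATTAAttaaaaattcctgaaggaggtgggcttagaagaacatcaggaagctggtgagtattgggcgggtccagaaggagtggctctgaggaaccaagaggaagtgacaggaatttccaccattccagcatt
Zfp979: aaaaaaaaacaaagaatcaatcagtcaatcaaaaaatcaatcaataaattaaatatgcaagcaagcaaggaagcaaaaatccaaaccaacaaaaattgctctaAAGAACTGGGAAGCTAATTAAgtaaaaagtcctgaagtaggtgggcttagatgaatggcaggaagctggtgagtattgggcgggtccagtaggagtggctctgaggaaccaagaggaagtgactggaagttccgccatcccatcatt
Zfp982: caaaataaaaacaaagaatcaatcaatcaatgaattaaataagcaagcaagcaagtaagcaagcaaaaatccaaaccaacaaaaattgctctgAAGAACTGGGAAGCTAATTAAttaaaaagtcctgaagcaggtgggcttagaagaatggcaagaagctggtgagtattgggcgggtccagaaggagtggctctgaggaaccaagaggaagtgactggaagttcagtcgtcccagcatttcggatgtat
Zfp985: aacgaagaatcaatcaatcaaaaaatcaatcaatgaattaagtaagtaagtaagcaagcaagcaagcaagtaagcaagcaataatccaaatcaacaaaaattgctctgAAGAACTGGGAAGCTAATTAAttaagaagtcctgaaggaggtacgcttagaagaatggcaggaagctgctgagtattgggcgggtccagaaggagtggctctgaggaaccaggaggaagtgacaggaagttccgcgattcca
Zfp933: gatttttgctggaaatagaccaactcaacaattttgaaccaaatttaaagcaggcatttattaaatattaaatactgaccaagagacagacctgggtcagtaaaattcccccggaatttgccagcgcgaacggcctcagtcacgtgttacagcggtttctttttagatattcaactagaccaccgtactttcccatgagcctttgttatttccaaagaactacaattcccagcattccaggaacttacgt

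Compared with the window of Zfp980, identity over an alignment of the 250 bases was 90.8% for Zfp979, 87.6% for the printed window of Zfp982, 86.0% for Zfp985 and 58.0% for Zfp933. The printed window of Zfp982 was chosen as the one most like that of Zfp980, and its other windows had 54.4% and 54.8%. The windows of the other members had identities of 52.8% to 60.4% with Zfp980 (median 56.8%), so Zfp933 had no more likeness to Zfp980 than members from other chromosomes had. The run in capitals is 21 bases long, ends between 121 and 136 bases before the annotated start, and occurred in 9 of 32851 windows of this length (0.0274%). It was found by searching the 4 windows that hold it in capitals, so its presence in them was fixed beforehand. The share is therefore a description. All 9 windows belong to zinc finger genes on chromosome 4: the 4 members above and Rex2, Zfp534, Zfp600, Zfp987 and Zfp988. The GC box motif GGGCGGG also stands in these 4 windows, but 23.4% of all windows held it on either strand. A match describes the letters in a window and is not a binding site.

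The Eed probe set separated the genotypes on all 3 days, as the labels require: it lay between 5.77 and 7.48 on the KO arrays and between 9.37 and 11.02 on the WT arrays (all values log2 expression after RMA). Undifferentiated ESC markers (Pou5f1, Nanog, Sox2, Zfp42 and Esrrb) were at array means of 11.36 to 12.004 on day 0 in all 4 clones. On day 7 their array means were 11.04 to 11.57 in KO cells and 7.43 to 8.53 in WT cells, and 6 markers of primitive blood cells had array means of 5.78 to 6.49 in KO and 9.88 to 11.40 in WT cells. Repeat arrays correlated at r = 0.990 to 0.995 across genes, except J1 WT on day 7 at r = 0.962, where 1256 genes lay more than 2-fold apart. Of the 34 members, 2 lay more than 2-fold apart between repeat arrays in J1 WT on day 3, among them Zfp980, and 1 did so in J1 WT and in Eed KO E14 on day 7. These are bulk samples, in which fewer cells of a type and less RNA per cell cannot be told apart.

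Most of the 34 genes were measured well inside the range of the array. Their means over the 24 arrays ran from 4.98 for Zfp950 to 10.49 for Zfp971. The median was 8.07, against 7.49 over all genes and 7.89 over 283 other numbered Zfp genes. The mean of 3 members lay under the lower quartile of all genes (6.12), and that of 8 lay above the upper quartile (9.08). Levels of different probe sets are not comparable per transcript, since probes differ in affinity, so this range describes signal and not abundance.

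Before differentiation the members differed little between KO and WT cells. With limma, none of the 34 was called on day 0, where a call needs an adjusted p under 0.05 over all genes and at least a 2-fold difference; 0.552% of all genes were called. The median KO minus WT difference was 0.08 on the log2 scale, against -0.03 over all genes, and 5 members had an unadjusted p under 0.05 (14.7%, against 12.8% of all genes). Zfp961, which lies on chromosome 8, had 10.30, 10.64, 10.58 and 10.56 on the KO arrays (E14, then J1) and 10.04, 10.11, 9.59 and 9.64 on the WT arrays (J1, then V6.5). Every KO array was above every WT array. The difference was 0.68 (SE 0.17, limma adjusted p = 0.0329), which is under 2-fold. Zfp951 had the largest difference, 0.91 (SE 0.35, limma adjusted p = 0.223), and its KO and WT arrays overlapped. Its clone means were 8.16 in Eed KO E14 and 6.40 in Eed KO J1, and the difference was 0.028 without Eed KO E14 and 1.788 without Eed KO J1.

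All 4 KO arrays lay above all 4 WT arrays on day 0 for 3 members, Zfp948, Zfp961 and Zfp980, where 6.33% of all genes did so, and below them for Zfp940 alone, where 5.01% of all genes did so. Markers of the feeder fibroblasts differed on this day: array means of the 9 listed genes were 8.004 to 9.30 in KO and 7.43 to 7.77 in WT cells, and 2 of the 9 were called higher in KO (Lox and Thbs1). Among all genes 0.552% were called in either direction on day 0. The part of the feeder markers in the day 0 differences was not tested.

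Zfp980 (probe set 10510159) was high in all undifferentiated cells and remained high in KO cells on every day. On day 0 it had 11.56 and 11.04 on the Eed KO E14 arrays, 11.53 and 11.42 on Eed KO J1, 10.65 and 10.63 on J1 WT and 10.88 and 10.999 on V6.5 WT. The lowest KO array was just above the highest WT array, and the difference of 0.60 (SE 0.39) did not pass the test (limma adjusted p = 0.599). On day 3 the KO arrays were at 10.50 and 11.17 for E14 and 11.13 and 10.91 for J1, while the WT arrays were at 8.998 and 7.37 for J1 and 9.32 and 10.28 for V6.5. All WT arrays were below all KO arrays, and the WT arrays spread over 2.91 log2 units against 0.66 for the KO arrays. On day 7 the KO arrays were at 11.21 and 10.60 for E14 and 11.18 and 10.85 for J1, and the WT arrays at 5.72 and 5.65 for J1 and 6.54 and 7.18 for V6.5. The genotypes were then far apart, by 4.69 log2 units (SE 0.39), or 25.8-fold.

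**Figure D1:**
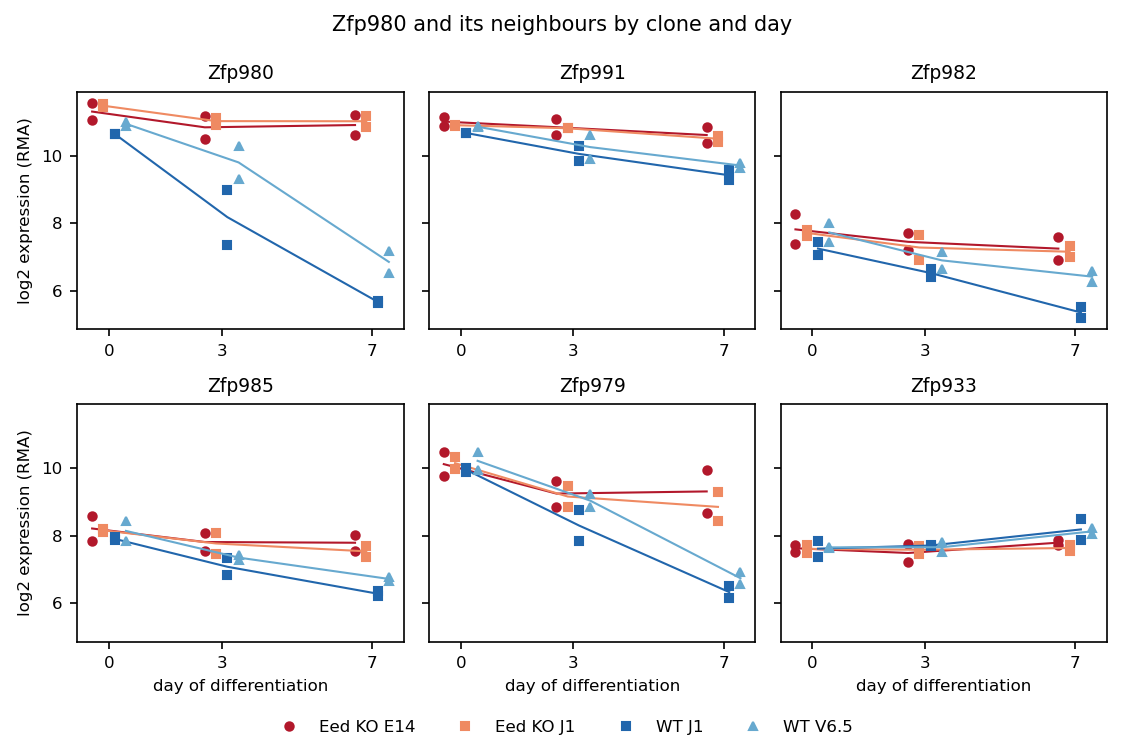
Log2 expression (RMA) of the 6 members of the chromosome 4 run by day of differentiation. Each point is an array, lines join the means of the 2 arrays of a clone, points are shifted sideways by clone, and the y axis is shared. Zfp980 and Zfp979 fall steeply in both WT clones. In the KO clones on day 7, Zfp980 lies between 10.60 and 11.21. Zfp979 lies between 8.42 and 9.94 there, after 9.76 to 10.47 on day 0. Zfp933 lies between 7.23 and 8.50 throughout.

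Day 3 was the earliest day on which a member was called between genotypes. Zfp980 was 1.94 higher in KO cells (SE 0.39, limma adjusted p = 0.0084), or 3.83-fold, and was the only member called of 34 (2.94%), where 0.757% of all genes were called and 0.667% were called higher. This call was lost when the 2 arrays of a line and day were averaged (adjusted p = 0.12), without Eed KO E14 (0.134) and without Eed KO J1 (0.112), where the differences were 1.937, 2.029 and 1.845. Without J1 WT the difference was 1.129 (limma adjusted p = 0.0212), and without V6.5 WT it was 2.745 (limma adjusted p = 1.43e-04). Zfp991 (0.67, SE 0.17, adjusted p = 0.0322) and Zfp948 (0.81, SE 0.19, adjusted p = 0.0245) passed the p threshold in limma but not the 2-fold minimum. The KO arrays lay above all WT arrays for Zfp951, Zfp980 and Zfp985 (6.12% of all genes) and below them for no member (4.3% of all genes). ESC markers already differed on day 3, with array means of 10.98 to 11.51 in KO and 9.59 to 10.66 in WT cells, and their part in the Zfp980 difference was not tested.

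On day 7, 5 of the 34 members were called higher in KO cells and none lower. They were Zfp979, Zfp982, Zfp985, Zfp951 and Zfp980, the last as a description with no test. That is 14.7% of the members, where 4.36% of all genes were called in either direction, 3.08% were called higher and 1.28% lower. Of the 5, 4 belong to the chromosome 4 run of 6. The count of 5 holds the Zfp980 difference known beforehand, and without Zfp980 the count was 4 of 33 (12.1%). The median difference over the 34 was -0.05, beside -0.04 over all genes, so the middle of the list lay close to that of the array. Among the 283 other numbered Zfp genes, 7 were called higher and 2 lower (3.18%).

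Zfp979 showed the second largest difference. It had 9.94 and 8.68 on the Eed KO E14 arrays, 9.28 and 8.42 on Eed KO J1, 6.16 and 6.51 on J1 WT and 6.91 and 6.57 on V6.5 WT. The lowest KO array was above the highest WT array. The difference was 2.54 (SE 0.32, limma adjusted p = 4.85e-06), or 5.82-fold.

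Zfp982 and Zfp985 differed less, and in both the J1 WT arrays were the lowest. Zfp982 had 7.60, 6.91, 7.33 and 6.99 in KO (E14, then J1) and 5.19, 5.54, 6.26 and 6.59 in WT (J1, then V6.5), a difference of 1.31 (SE 0.28, limma adjusted p = 0.0018). Zfp985 had 8.03, 7.55, 7.70 and 7.38 in KO and 6.36, 6.21, 6.67 and 6.78 in WT, a difference of 1.16 (SE 0.21, limma adjusted p = 3.66e-04). KO and WT arrays did not overlap for either gene. Both calls were lost without J1 WT, where the differences were 0.78 (adjusted p = 0.0583) for Zfp982 and 0.94 (adjusted p = 0.00825, under 2-fold) for Zfp985. With Zfp980 counted, only 2 members were then called.

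The remaining genes of the run, Zfp991 and Zfp933, were not called. Zfp991 had 10.84, 10.38, 10.41 and 10.59 in KO and 9.57, 9.27, 9.64 and 9.78 in WT. Its groups did not overlap, and the difference of 0.99 (SE 0.17, limma adjusted p = 1.89e-04) was just short of 2-fold. Zfp933, at the far end of the run, went the other way, with 7.87, 7.71, 7.72 and 7.55 in KO and 7.87, 8.50, 8.04 and 8.21 in WT. This difference of -0.44 (SE 0.16) did not pass (limma adjusted p = 0.0543).

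Outside chromosome 4, Zfp951 on chromosome 5 was the only member called on day 7, and its value came from Eed KO E14. It had 7.32 and 7.54 on the Eed KO E14 arrays, 5.96 and 6.09 on Eed KO J1, 5.37 and 5.51 on J1 WT and 5.95 and 5.96 on V6.5 WT. The Eed KO J1 arrays lay only just above the V6.5 WT arrays. The difference of 1.03 (SE 0.35, limma adjusted p = 0.0427) lost its call in 14 of 22 alternative analyses, in which the adjusted p reached 0.379 and the difference without Eed KO E14 was 0.33. Averaged over the days, Eed KO E14 was 1.24 above Eed KO J1 for this gene (SE 0.12, limma adjusted p = 9.19e-06), the only member called between the KO clones, where 0.191% of all genes were called.

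Of the 29 members not called on day 7, 4 had an adjusted p under 0.05 with a difference under 2-fold (11.8% of the 34, where 11.9% of all genes did so). Besides Zfp991 these were Zfp953 (0.55, SE 0.12, limma adjusted p = 0.00288), Zfp954 (0.62, SE 0.21, limma adjusted p = 0.042) and Zfp974 (-0.44, SE 0.14, limma adjusted p = 0.0372). In all, 25 of the 34 differed by less than 0.5 in either direction. The KO arrays lay above all WT arrays for 10 members, the chromosome 4 genes other than Zfp933 and Zfp931, Zfp946, Zfp951, Zfp953 and Zfp954, where 9.7% of all genes did so. They lay below all WT arrays for no member, where 7.13% of all genes did so. The chromosome 17 run had no member called between all KO and all WT arrays on any day, with differences between -0.49 and 0.27 on day 7.

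**Figure D2:**
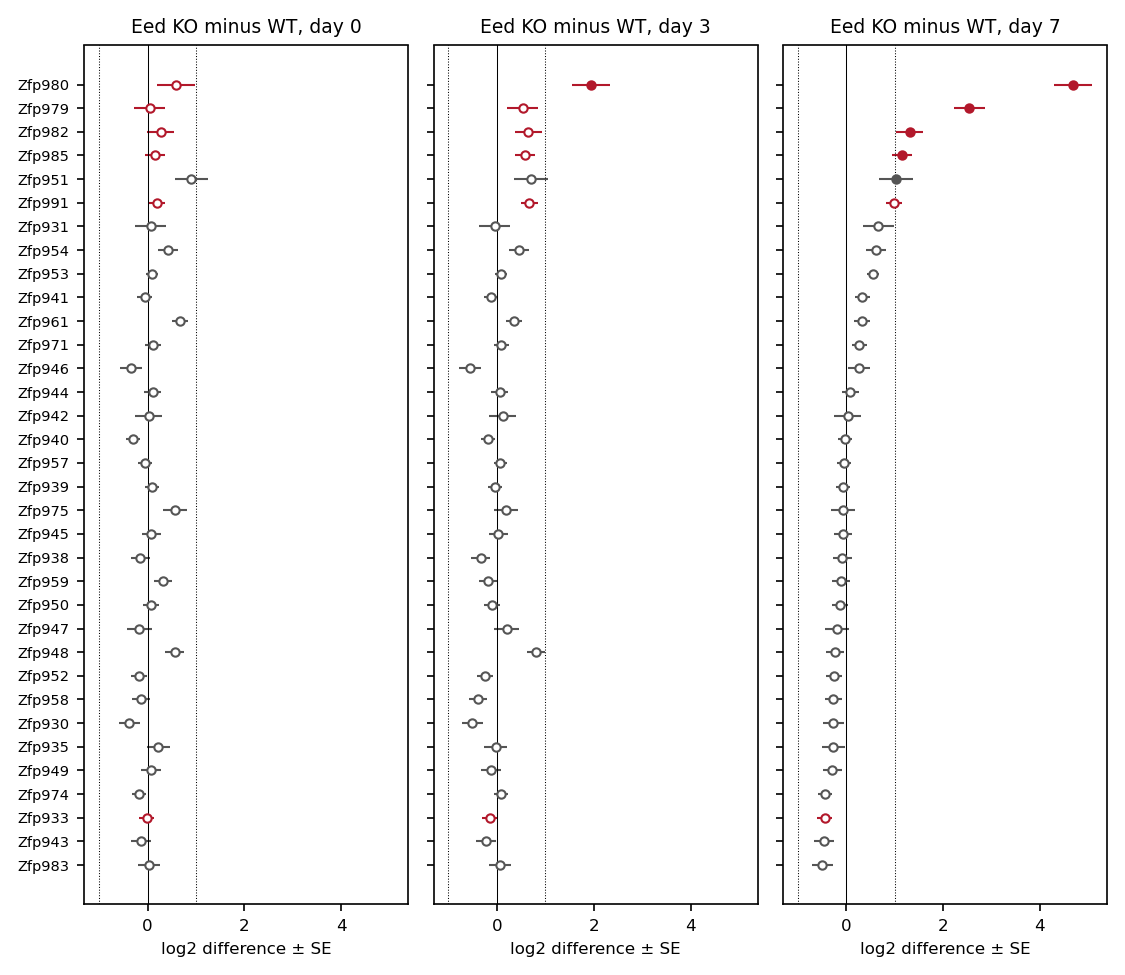
Eed KO minus WT difference (log2, with its SE from limma) of all 34 members on days 0, 3 and 7, ordered by the day 7 difference. Red marks the chromosome 4 run, filled points met the call rule and the dotted lines mark a 2-fold difference. On day 7, 4 of the 5 filled points are red, and 25 of the 34 members lie within 0.5 of 0. The filled day 7 point of Zfp980 is a description with no test.

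In WT cells 5 of the 6 genes of the chromosome 4 run fell by day 7, all but Zfp933. By day 3, 2 members were called lower than on day 0 (5.88%, where 2.04% of all genes were called and 1.08% were called lower): Zfp980 fell by 1.80 (SE 0.33, limma adjusted p = 6.8e-04) and Zfp979 fell by 1.41 (SE 0.27, limma adjusted p = 0.001). The Zfp979 call was lost without J1 WT (-1.18, adjusted p = 0.0694). Zfp982 (-0.77), Zfp985 (-0.81) and Zfp991 (-0.61) had adjusted p-values of 0.0334, 0.00321 and 0.00511 in limma but were under 2-fold. On day 3 Zfp979 had 8.76 and 7.84 on the J1 WT arrays and 8.84 and 9.23 on V6.5 WT, all below its lowest day 0 WT array of 9.88.

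By day 7, 5 members had fallen in WT cells and 1 had risen, 17.6% of the 34, where 8.98% of all genes were called, 3.89% lower and 5.09% higher. Without Zfp980, 5 of 33 were called (15.2%). The 5 that fell were all of the chromosome 4 run. The changes were -3.54 for Zfp979 (SE 0.27, limma adjusted p = 5.96e-10), -1.60 for Zfp982 (SE 0.24, limma adjusted p = 7.97e-06), -1.52 for Zfp985 (SE 0.18, limma adjusted p = 2.91e-07) and -1.20 for Zfp991 (SE 0.14, limma adjusted p = 3.75e-07). Zfp980, whose day 7 WT arrays were part of the known result, had a change of -4.52 (SE 0.33), or 22.9-fold lower. For Zfp979 the WT arrays were at 9.88 to 10.47 on day 0 and at 6.16 to 6.91 on day 7, with no overlap. The median change over the 34 was -0.01, against -0.04 over all genes.

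The gene that rose in WT cells was Zfp983 of the chromosome 17 run. On day 0 it had 5.76 and 6.21 on J1 WT and 5.47 and 5.63 on V6.5 WT, and on day 7 it had 6.86 and 7.04 on J1 WT and 6.72 and 7.08 on V6.5 WT. All day 7 arrays were above all day 0 arrays, and the change was 1.16 (SE 0.19, limma adjusted p = 2.52e-05). Without V6.5 WT it was 0.97, under 2-fold. Its neighbours in the run changed by less, with 0.73 for Zfp948 (SE 0.16, limma adjusted p = 8.58e-04) and -0.62 for Zfp946 (SE 0.19, limma adjusted p = 0.0136), both under 2-fold. In all, 10 members passed the p threshold in WT cells without a 2-fold change (29.4%, where 27.6% of all genes did so), among them Zfp953 on chromosome 13 (-0.80, SE 0.11, limma adjusted p = 1.73e-06) and Zfp933 (0.52, SE 0.13, limma adjusted p = 0.00273).

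In KO cells few members changed with differentiation. By day 3 none of the 34 was called with limma (1.17% of all genes were), and 6 had an unadjusted p under 0.05 (17.6%, against 18.5% of all genes). Zfp979 (-0.93, SE 0.27, limma adjusted p = 0.0416) and Zfp975 on chromosome 7 (-0.71, SE 0.21, limma adjusted p = 0.0472) passed the p threshold under 2-fold, and Zfp946 changed by 0.57 (SE 0.19, limma adjusted p = 0.079). By day 7, 1 member was called lower (2.94%, where 2.47% of all genes were called and 0.421% were called lower), which was Zfp979 at -1.05 (SE 0.27, limma adjusted p = 0.00927). Its KO arrays were at 9.76 to 10.47 on day 0 and 8.42 to 9.94 on day 7, so the days overlapped, and the call was lost without the second J1 KO array of each day (adjusted p = 0.0623) and without Eed KO J1 (0.284). Zfp980 differed from day 0 by -0.43 (SE 0.33) on day 7 in KO cells, and Zfp983 by 0.64 (SE 0.19, limma adjusted p = 0.0206, under 2-fold).

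**Figure D3:**
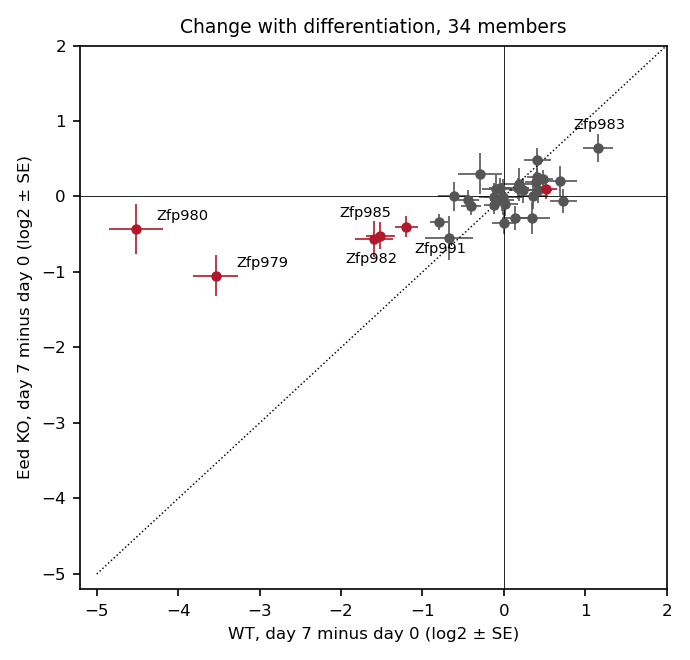
Change from day 0 to day 7 (log2, with SE from limma) of the 34 members in WT cells (x axis) and Eed KO cells (y axis), with equal changes on the dotted diagonal and the chromosome 4 run in red. The 2 axes share no arrays. Zfp980 is at -4.52 in WT and -0.43 in KO cells and Zfp979 at -3.54 and -1.05, whereas the 28 members not called in WT cells lie between -0.80 and 0.73 on the x axis.

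The change from day 0 to day 7 itself differed between genotypes for 2 members, Zfp979 and Zfp980. That is 5.88% of the 34, where 3.38% of all genes were called and 1.93% with a higher change in KO. Without Zfp980 it was 1 of 33 (3.03%), near the share of all genes. For Zfp979 the KO change exceeded the WT change by 2.49 (SE 0.39, limma adjusted p = 1.91e-04). For Zfp980 the corresponding value was 4.09 (SE 0.47), given as a description with no test. Zfp985 (1.00, SE 0.25, limma adjusted p = 0.0135), Zfp991 (0.80, SE 0.20, limma adjusted p = 0.014) and Zfp948 (-0.79, SE 0.23, limma adjusted p = 0.0335) passed the p threshold under 2-fold, and Zfp982 did not pass (1.03, limma adjusted p = 0.0573). Zfp948 thus had the opposite sign to Zfp979, Zfp985 and Zfp991: its KO arrays were at 9.91 to 10.10 on day 0 and 9.83 to 10.03 on day 7, and its WT arrays at 9.10 to 9.68 and then 9.58 to 10.49.

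The J1 line allowed a comparison of genotypes within a named line, with 2 arrays against 2. Each side is 1 clone, so genotype and clone cannot be told apart here. The p-values rest on the spread of repeat arrays. On day 0 no member was called with limma (5 had an unadjusted p under 0.05, 14.7% against 12.2% of all genes; 0.456% of all genes were called). On day 3, 3 members were called (8.82%, where 1% of all genes were): Zfp980 at 2.84 (SE 0.39, limma adjusted p = 5.71e-04), Zfp948 at 1.00 (SE 0.23, limma adjusted p = 0.0214) and Zfp946 at -1.04 (SE 0.23, limma adjusted p = 0.0179). The calls of Zfp948 and Zfp946 were lost in 5 and 4 of 16 alternatives, with adjusted p-values up to 0.222 and 0.335, and without single arrays between 1 and 3 members were called. On day 7, 5 were called higher and none lower (14.7%, where 4.29% of all genes were, and 2.91% higher): Zfp979 at 2.52 (SE 0.40, limma adjusted p = 3.25e-04), Zfp982 at 1.80 (SE 0.31, limma adjusted p = 7.63e-04), Zfp985 at 1.25 (SE 0.27, limma adjusted p = 0.00394), Zfp991 at 1.08 (SE 0.22, limma adjusted p = 0.00285), and Zfp980 at 5.33 (SE 0.39). All 5 belong to the chromosome 4 run. The day 7 value of Zfp980 is again a description, and without Zfp980 the count was 4 of 33 (12.1%). The Zfp985 call was lost without the first J1 KO array of each day (adjusted p = 0.0591). Zfp951 was not called in this line (0.59, SE 0.21, limma adjusted p = 0.0673).

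Between the WT lines, averaged over the days, 1 member was called, Zfp980, where 0.426% of all genes were. Since the average holds the day 7 WT arrays, it is a description here. Zfp980 was 1.03 higher in V6.5 WT than in J1 WT (SE 0.23), with clone means of 10.94 against 10.64 on day 0, 9.80 against 8.18 on day 3 and 6.86 against 5.68 on day 7. Without the second J1 WT array of each day the difference was 0.745, and without the second V6.5 WT array of each day it was 0.744, both under 2-fold. Between the KO lines Zfp980 differed by -0.16 (SE 0.23), less than the spread of their arrays.

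**Figure D4:**
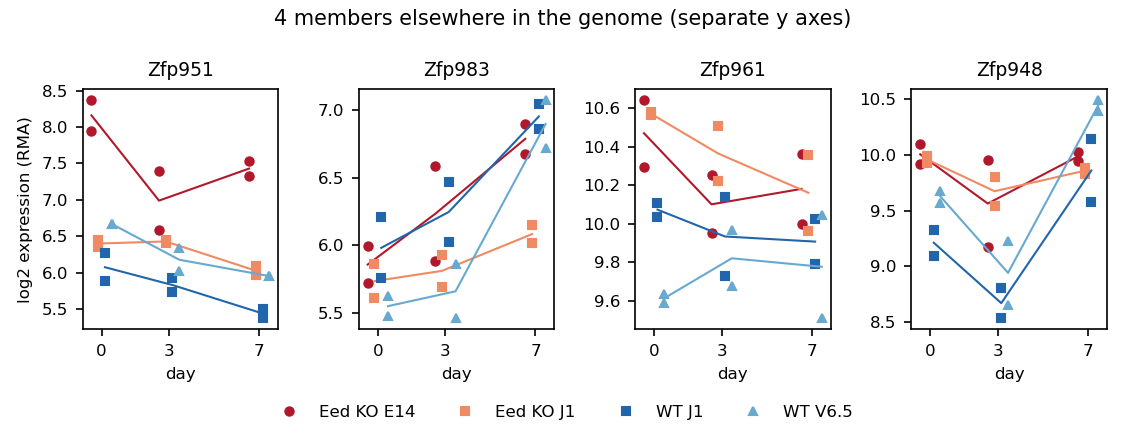
Log2 expression (RMA) by day of 4 members outside the chromosome 4 run, with a separate y axis for each gene, points for arrays and lines through clone means, shifted sideways by clone. Zfp951 is highest in Eed KO E14 on every day, Zfp983 rises toward day 7 to 6.72 to 7.08 in WT cells, the 4 KO arrays of Zfp961 lie above the 4 WT arrays on day 0, and Zfp948 has its lowest mean in WT cells on day 3.

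Near-identical copies limit which gene of the chromosome 4 run a signal belongs to. Of the 34 members, 12 were also listed in probe sets shared by several genes, 18 further symbols of this number range occurred in shared probe sets only, and the deposited table does not split such signal. The 6 shared probe sets of the chromosome 4 cluster that list a symbol of this number range hold 5 to 13 genes each. Their gene lists overlap, so they are not separate measurements. Probe sets 10490854 and 10510167 list the same 10 genes, and 3 of the 6 list Zfp980. The share of all probe sets called in the same fit is not given here. On day 7, 5 of the 6 were called higher in KO cells, with all 6 differences between 0.92 and 3.47, and in WT cells all 6 were called lower on day 7 than on day 0, with changes of -3.28 to -1.05. The widest difference was that of probe set 10510201, which lists Rex2, Zfp981, Zfp980, Zfp600, Zfp987 and Zfp979. It had means of 12.59 ± 0.13 (SD, n = 4) in KO and 9.12 ± 0.36 (SD, n = 4) in WT cells on day 7.

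Zfp985 was the only member with 3 probe sets of its own. Their day 7 differences were 1.16, 1.18 and 1.74, and all 3 were called in the fit over all probe sets. Of 21 shared probe sets from other places, 2 were called higher on day 7, at 1.74 and 1.61, with no share of all probe sets given beside this count. Both were also called lower in WT cells on day 7 than on day 0, at -1.78 and -1.71, while 1 of the 21 was called higher there. These 2 probe sets list Zfp936, Zfp975 and EU599041, whereas the probe set of Zfp975 alone differed between genotypes by -0.07 (SE 0.25) on day 7.

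**Figure D5:**
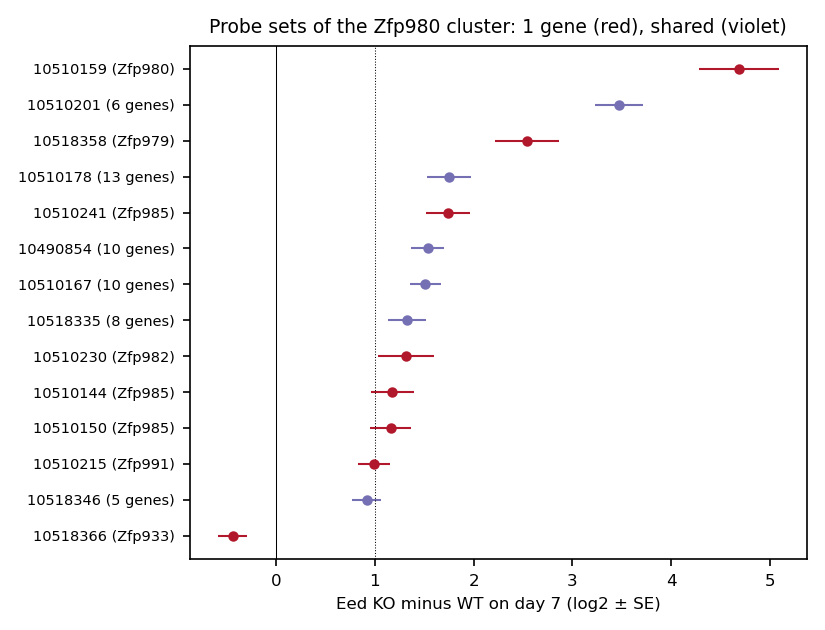
Eed KO minus WT difference on day 7 (log2, with SE from limma) of chromosome 4 cluster probe sets that list a Zfp900 to Zfp999 symbol. Each is labelled by its number and its gene, or by how many genes share it. The probe set of Zfp600 alone is outside this range and is not shown. Red marks probe sets of 1 gene, violet shared ones, and the dotted line a 2-fold difference. All but Zfp933 lie above 0, and the shared probe sets span 0.92 to 3.47.

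The interval from the first to the last gene of this cluster held 18 coding genes in the RefSeq table, of which 7 had a probe set of their own. These were the 6 members and Zfp600, which was 2.71 higher in KO cells on day 7 (SE 0.33, limma adjusted p = 3.47e-06) and fell by 2.74 in WT cells (SE 0.28, limma adjusted p = 5.23e-08). Apart from Zfp980, 4 of the other 6 genes were called on day 7 between genotypes, where 4.36% of all genes were. Of the 10 coding genes before the cluster, 6 were measured and none was called with limma (differences from -0.17 to 0.47). Of the 10 after it, 9 were measured and 2 were called, the retroviral restriction gene Fv1 lower (-1.15, SE 0.27, limma adjusted p = 0.00461) and Agtrap higher (1.01, SE 0.19, limma adjusted p = 4.98e-04).

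Across the 12 means of line, genotype and day, each gene of the array was correlated with Zfp980. Its 6 closest genes were Dnmt3l, a cofactor of de novo DNA methylation, at r = 0.989, the zinc finger gene Zfp640 at 0.984, the nuclear receptor Nr0b1 at 0.980, the zinc finger gene Zfp296 at 0.979, the mitochondrial ADP/ATP carrier Slc25a5 at 0.977 and the RNase subunit Rpp25 at 0.971. The 12 means are not independent, since each clone gives 3 of them. They also include the day 7 values of Zfp980 that were known beforehand, so every r here is a description with no test. Among 33 other members, Zfp991 (0.967), Zfp985 (0.956), Zfp982 (0.945) and Zfp979 (0.939) had r above 0.9, as had 223 of 19937 genes in all. The median r over the other members was -0.01, and Zfp933 had the lowest at -0.887.

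Genes of the machinery that KRAB zinc finger proteins act through were taken as a list. Of 30 listed corepressor and heterochromatin genes, 27 were measured. None was called between genotypes on day 0 with limma, where 0.552% of all genes were. On day 3, 1 of the 27 was called higher in KO cells, Dnmt3l at 2.08 (0.667% of all genes were). On day 7 these were 2 of 27, Dnmt3l at 4.23 and the chromatin remodeller Smarcad1 at 1.14 (3.08% of all genes were). In WT cells 3 of the 27 were called lower by day 7, where 3.89% of all genes were: Dnmt3l (-4.47), the DNA methyltransferase Dnmt3b (-1.67) and the remodeller Hells (-1.54). Trim28, the corepressor itself, was at 12.24 ± 0.13 (SD, n = 4) in KO and 11.80 ± 0.25 (SD, n = 4) in WT cells on day 7, a difference of 0.45 (SE 0.13, limma adjusted p = 0.0157) that is under 2-fold. Setdb1 differed by -0.02 (SE 0.13, limma adjusted p = 0.934).

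KRAB zinc finger genes with known targets outside the number range were measured for 5 of 7. On day 7, 2 of the 5 were called higher in KO cells, where 3.08% of all genes were. They were Zfp57, which protects imprinted methylation, at 1.02 (SE 0.16, limma adjusted p = 7.9e-05), and Zfp819 at 1.81 (SE 0.21, limma adjusted p = 1.24e-06). Both fell in WT cells by day 7, where 3.89% of all genes were called lower, with changes of -1.14 for Zfp57 and -2.27 for Zfp819. Zfp809, which silences proviruses, was 0.95 higher in KO cells on day 7 (SE 0.17, limma adjusted p = 4.28e-04), just under 2-fold, and Zfp568 and Zfp708 did not pass. Of 11 genes that mark two-cell-like ESCs, 3 were measured and none was called between genotypes on days 0, 3 or 7 with limma. Of all genes, 0.552%, 0.757% and 4.36% were called on these days.

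The ESC markers moved in the same direction as the chromosome 4 genes other than Zfp933. On day 7, 5 of 5 were called higher in KO cells (3.08% of all genes were). From day 0 to day 7, 5 of 5 were called lower in WT cells (3.89% of all genes were). On day 7 Pou5f1 was at 11.80 ± 0.22 (SD, n = 4) in KO and 8.68 ± 0.49 (SD, n = 4) in WT cells, and Nanog at 12.33 ± 0.44 and 8.77 ± 0.73. Zfp42, itself a zinc finger gene of ESCs, was at 9.96 ± 0.26 in KO and 7.71 ± 1.12 in WT cells on day 3, and at 10.12 ± 0.31 and 6.01 ± 0.41 on day 7. Primitive blood markers were called lower in KO cells on day 7 for 6 of 6 and heart markers for 3 of 4 (1.28% of all genes were). Endoderm markers were called between genotypes on day 7 for 0 of 5, and neural markers for 0 of 3. From day 0 to day 7, 3 of 5 endoderm markers were called higher in KO cells and 3 of 5 in WT cells. The median changes of the endoderm markers were 1.542 in KO and 1.481 in WT cells. The part of these marker differences in the day 7 values of Zfp980 and its neighbours was not tested.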

How the data were processed

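The deposited table gives a log2 value for each probe set and array. Per the submitters' processing notes, the authors used RMA and Affymetrix Power Tools for it. For tool versions, annotation and genome build, the answer is "not given in the sources used here". RMA quantile-normalizes arrays and compresses weak signals, so differences of dim genes may be understated. Of 35556 probe sets, 21789 had 1 symbol in the platform annotation, 1621 had several and 12146 were not listed.

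In R 4.3.3, limma 3.58.1 and statmod 1.5.0 fitted 6 means of genotype and day to the 24 arrays and treated clones as random blocks (correlation 0.161, 18 residual degrees of freedom). The J1 and line comparisons used 12 means (12 residual degrees of freedom). P-values were Benjamini-Hochberg adjusted over 19938 genes, and the code was tested on simulated data. The number of arrays limits the precision, and the J1 and line comparisons had 1 clone per side and no clone block.

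The members, lists and tests were chosen with earlier results of these data known. Zfp980, the 6 largest called changes each way per comparison (4 for J1 and lines, or the 3 largest where none was called), the chromosome 4 neighbours, the brightest and dimmest member and the 6 genes most like Zfp980 were named by rule; other named members were chosen after their values were seen. Context lists were written from general knowledge, with up to 4 called genes named of each. Alternatives were other fold minimums, averaged arrays, a replicate block, left-out arrays or clones, filters and probe set choices, and a fit on all probe sets that was added after seeing the data.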

Additional observations from a re-analysis of the deposited data

Results flagged for a closer look

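Of the members named by rule, 14 were examined in 84 groups of 4 arrays, and in 4 groups an array stood far below the other 3; chance alone gives about 1 in 20 such groups. The arrays were Zfp950 at 4.48 in KO cells on day 3 and at 4.6 in WT cells on day 0, Zfp971 at 9.86 in WT cells on day 3, and Zfp975 at 9.03 in KO cells on day 0. Zfp950 was the dimmest member and Zfp971 the brightest. None of the 3 genes was called between genotypes.

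In 4 members, KO and WT cells changed unequally between days 0 and 7, by a limma test of the difference itself. With Zfp980 counted, 14.7% of the 34 members had a limma adjusted p under 0.05 here, where 8.11% of all genes had one. The KO change minus the WT change was 2.49 for Zfp979, 1.0 for Zfp985, 0.8 for Zfp991 and -0.79 for Zfp948; of these 4, that of Zfp979 alone reached 2-fold, and 1.0 is a rounded value just under it. For Zfp980 it was 4.09, given as a description with no test because its day 7 difference was known beforehand.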

How the results depend on the processing

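Alternatives were run for 13 counts of called members and 36 differences of members named by rule, and none of these changed direction; the other printed differences have no alternatives. With no minimum fold change, members called were 1 on day 0, 3 on day 3 and 9 on day 7 between genotypes; 7 and 16 in WT cells and 2 and 5 in KO cells by days 3 and 7; 5 for the genotype difference in change; 3 between KO lines and 9 between WT lines. The shares of all genes were then 2.02%, 2.18% and 16.3% between genotypes (3250 genes in place of 870 on day 7), 11.7% and 36.6% in WT cells, 6.36% and 16.5% in KO cells, 8.11% for the difference in change, and 9.39% and 13.3% between lines, so the KO counts of 5.88% and 14.7% of members were under those of all genes. With a minimum of 1.5-fold they were 1 on day 0, 3 on day 3, 7 and 10 in WT cells, 2 and 2 in KO cells, 5 for the difference in change and 2 between WT lines. Shares of all genes are not given beside these counts or those of the alternatives that follow, so they describe the members only. With averaged arrays 0 were called on day 3. Without Eed KO E14 this count was also 0. Without Eed KO J1 it was 1 on day 0 (Zfp951, 1.79), 0 on day 3, and 1 and 0 for KO cells by days 3 and 7. Without J1 WT it was 2 on day 7 and 1 in WT cells by day 3. Leaving out each replicate in turn gave 4 to 6 on day 7, 0 to 1 for each KO change with day, 2 to 4 for the difference in change, 1 to 3 for J1 on day 3 and 0 to 1 between WT lines. The replicate numbers did not pair all groups alike: over 66 pairs of groups the correlation of replicate differences ran from -0.397 to 0.470. The median was 0.057 and 30 pairs were over 0.1, so shared replicate effects may be present in part of the groups. With a replicate block, 5 members were called on day 7, as without it, and no other count left 1.5 times its value. The cause of these shifts was not tested. Counts of called members in this section include Zfp980 wherever it met the call rule. Each genotype has 2 clones.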
